A study of Mus musculus with 10 samples.

Results

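The data described here are the 2 chromatin immunoprecipitation sequencing (ChIP-seq) libraries of hnRNP L in R1E mouse embryonic stem cells, 1 from untreated cells and 1 from cells given Adriamycin. Their deposited peak lists were taken whole, contigs named random included, and hold 1120 untreated and 1022 Adriamycin peaks. That is 2142 of the 543779 peaks in the 10 lists of the series. The other 8 lists are H3K4me3, H3K27me3, H3K79me2 and RNA polymerase II (Pol II) in the same conditions, and they are used only to describe the hnRNP L peaks.

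Both groups came from cells of a mixed C57BL/6 and 129Sv background, kept under 20 passages in medium with serum and leukemia inhibitory factor. The treated group had 0.5 uM Adriamycin (doxorubicin, a topoisomerase II poison that breaks DNA) for 8 h, and the control group had no treatment. There was 1 library per condition, so a difference between conditions has no replicate check and no test. The number of reads behind each list is unknown. No gene annotation or genome on the authors' build, mm9, was used here, so regions are named by coordinates alone and the identity of the cells was not checked against marker genes.

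HnRNP L is a nuclear RNA-binding protein that prefers CA-rich RNA and regulates alternative splicing, RNA stability and translation. Antibodies against such proteins can bring down chromatin through RNA that is still being made, through partner proteins, or directly. H3K4me3 marks active and poised promoters, H3K27me3 Polycomb-repressed chromatin and H3K79me2 transcribed gene bodies.

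Most hnRNP L peaks were about 1 kb wide and had low scores. The score is the authors' value for each peak. The peak caller they named, MACS of that generation, writes it as 10 times the negative log10 of a p-value, and the lowest possible score of 50 stands for a p of 1e-05. The median score was 112.47 in untreated cells and 121.645 after Adriamycin. The median width was 950 bp (quartiles 746 and 1252 bp) and 963 bp (768.5 and 1374.75 bp). Scores pile up at 3100, called the ceiling here because few peaks lie above it, and 47 untreated and 42 Adriamycin peaks reached it. Of those, 40 in each list overlapped a peak at that ceiling in the other list.

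Untreated peaks covered 1655.24 kb and Adriamycin peaks 1615.14 kb, a ratio of 0.976. The direction was not stable, since the ratio became 1.02 when the lists were made equally long by score. Bases covered in both lists came to 1133.72 kb, which is 68.5% of the untreated and 70.2% of the Adriamycin length. A few wide peaks carried much of the length. The 45 untreated peaks over 5 kb wide covered 418.5 kb, 25.3% of the list, and the 49 Adriamycin peaks of that size covered 471.0 kb, 29.2%. In the 4 narrower classes the Adriamycin list covered less, for example 146.3 kb against 180.8 kb in peaks of at most 750 bp.

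Peaks were not spread evenly over chromosomes. Chromosome 4 held 196 untreated and 190 Adriamycin peaks, 17.5% and 18.6% of the lists. In the 8 lists of the other targets its share lay between 7.0% and 7.31%. Chromosome 5 followed with 104 and 96 peaks and chromosome 8 with 94 and 78. Over the numbered chromosomes and X, the Adriamycin list had fewer peaks on 15, the same number on 1 and more on 4. Chromosome 3 had the lowest ratio of covered length among them, with 28 peaks over 24.68 kb in untreated cells and 16 over 16.15 kb after Adriamycin. In each list 15 of these overlapped a peak of the other.

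The first comparison asked which hnRNP L peaks were found in both conditions. A peak was called partnered when a peak of the other list overlapped it by at least 1 bp. In the untreated list 404 peaks had no partner, 36.1% of it, and in the Adriamycin list 311 had none, 30.4%. These percentages are the background of the lists as a whole, against which the groups below are read. In the lists of the other targets, taken the same way, the percentages were 14.5 and 15.8 for H3K4me3, 41.2 and 27 for H3K27me3, 19.0 and 18.0 for H3K79me2, and 48.0 and 26.1 for Pol II, untreated first. Joined across conditions, the peaks made 1364 regions, of which 649 held peaks of both conditions, 404 untreated peaks only and 311 Adriamycin peaks only.

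Whether a peak had a partner went with its score. Each list was ranked by score and divided into 10 classes of equal size. In the lowest untreated class 25.9% of peaks had a partner (exact 95% interval 18.08 to 35.03%) and in the highest 100% had (96.8 to 100%). After Adriamycin the values were 27.2% (18.9 to 36.8%) and 99.0% (94.7 to 100.0%). In the 5 lower classes, up to scores of 112.47 and 121.64, at most 55.4% of untreated and 67.6% of Adriamycin peaks were partnered. In the 3 highest, from scores of 316.34 and 364.4 upward, at least 99.0% were.

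**Figure D1:**
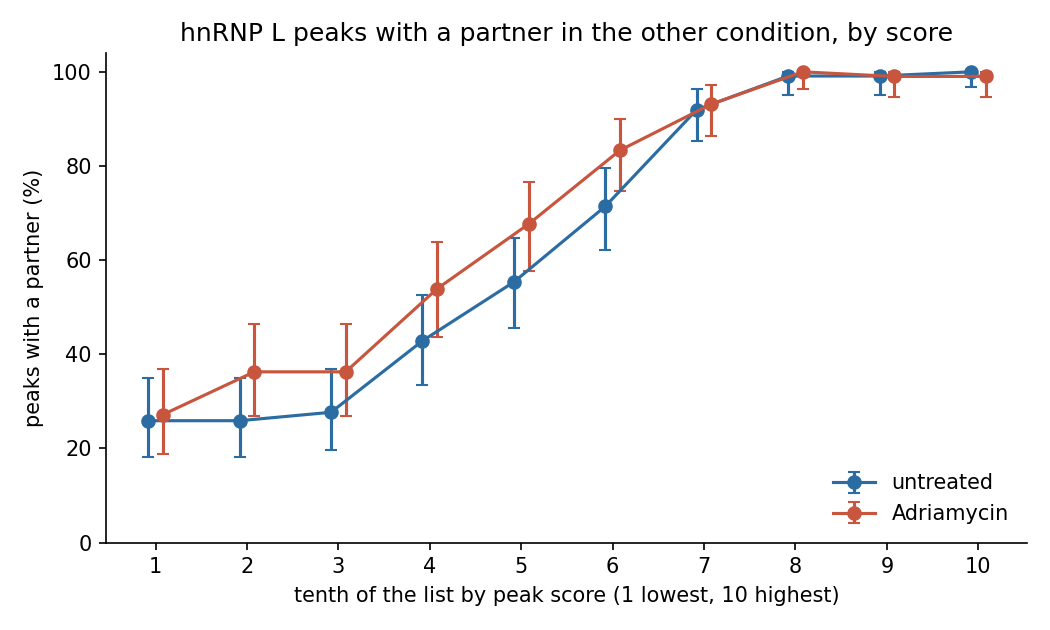
Percentage of hnRNP L peaks overlapped by a peak of the other condition (vertical axis) in 10 equal classes of a list ranked by score (horizontal axis), with exact 95% binomial intervals as bars. Both lists go from about 26 or 27% in the lowest class to at least 99.0% in the 3 highest, and counting error is the only error shown.

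Strong peaks, those with a score of at least 500, were nearly all found in both conditions. They numbered 274 in untreated cells and 272 after Adriamycin, and 273 and 270 of them had a partner. In 259 of the untreated and 254 of the Adriamycin strong peaks that partner was itself strong. By the same count the unpartnered share was 0.365% and 0.735% for hnRNP L, against 3.93% of strong untreated Pol II peaks and at most 0.616% in the Adriamycin Pol II list and each histone mark list. With 1 and 2 unpartnered peaks, the hnRNP L intervals ran to 2.02% and 2.63%.

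The single strong untreated peak without a partner lay on chromosome 8 at 19852966-19865696, 12731 bp wide with a score of 1112.78. The nearest Adriamycin peak was 39.13 kb away. In the Adriamycin list the strongest peak without a partner lay on chromosome 2 at 98506231-98508000, with a score of 1958.01 and a width of 1770 bp. The nearest untreated hnRNP L peak was 4161 kb away, and no peak of any of the 4 other targets overlapped it in either condition. The other was on chromosome 8 at 19787964-19792282, 4319 bp wide with a score of 873.7, and 5.912 kb from the nearest untreated peak. Both chromosome 8 peaks lay in the same cluster of wide peaks, described below.

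Below these, the unpartnered peaks over 5 kb from the other list had low scores. The next strongest untreated ones were on chromosome 6 at 145881012-145881776 (score 210.35), chromosome 1 at 56838609-56839751 (180.46) and 16582534-16583789 (172.77), and chromosome 13 at 66557904-66559155 (161.01). The chromosome 6 peak overlapped an H3K27me3 peak in untreated cells, and an H3K27me3 peak lay 0.017 kb from it after Adriamycin. The first chromosome 1 peak overlapped Pol II in untreated cells, while the nearest Pol II peak after Adriamycin was 189.1 kb away. The second overlapped Pol II in both conditions. In the Adriamycin list the next ones were on chromosome 8 at 19923323-19942255 (288.37), chromosome 4 at 3006470-3014411 (215.38) and X at 73843733-73844641 (200.91). The first pair overlapped H3K27me3 and Pol II in both conditions, so those targets were listed there in untreated cells too.

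Unpartnered peaks were narrower as well as weaker. Their median width was 780 bp in untreated cells and 809 bp after Adriamycin, against 1051 and 1034 bp for partnered peaks. Their median scores were 65.5 and 67.4, against 262.9 and 234.3. Many were close to a peak of the other list. In the untreated list 136 of the 404 lay within 5 kb of an Adriamycin peak, and in the Adriamycin list 131 of the 311 lay within 5 kb of an untreated peak. Over 100 kb away were 152 untreated and 94 Adriamycin peaks.

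The second comparison asked whether peaks found in both conditions had the same shape. There were 572 pairs in which 1 untreated peak overlapped 1 Adriamycin peak and neither overlapped any other. The median difference in width, Adriamycin minus untreated, was -21.5 bp (quartiles -209 and 148.5 bp), with 308 peaks narrower, 262 wider and 2 equal. The median differed in sign between score classes, with quartiles on both sides of 0 in each. The classes were set by the untreated score alone, and the part of that choice in the sign was not tested. At untreated scores of 50 to 100 the median was 41 bp over 135 pairs, at 200 to 500 it was -107 bp over 105 pairs, and at 500 and above it was -12 bp over 227 pairs. Starts were within 10 bp of each other in 74 pairs and ends in 52.

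Strong pairs coincided more closely than weak ones. The part covered in both conditions was a median of 88.1% of the joint length at untreated scores of 1000 and above, and 66.5% at scores of 50 to 100. On contigs named random it was 91.1%, outside clusters 78.1% and in clusters on placed chromosomes 63.6%. Over the 572 pairs the scores in the lists had a Spearman's rho of 0.905 and the widths 0.594. These describe sites of 2 libraries that were called with the same software and share the ceiling of the score. Within classes of the untreated score, which narrow the range, rho of the scores was -0.00357 at 50 to 100, 0.225 at 100 to 200, 0.62 at 200 to 500, 0.458 at 500 to 1000 and 0.915 at 1000 and above. Where peaks did not match 1 to 1, there were 35 regions with more untreated peaks, 28 with more Adriamycin peaks and 14 with the same number above 1.

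The third question was how peaks were spaced, and here the lists fell into 3 kinds of place. Contigs named random hold sequence of the assembly without a known position, and 158 untreated and 153 Adriamycin peaks were there. A cluster was a run of 10 or more peaks of a list with no gap above 100 kb, and clusters on placed chromosomes held 374 and 364 peaks. The remaining 588 and 505 peaks lay elsewhere on placed chromosomes. Clusters were set within each list, so comparisons of the conditions by place are partly over unlike stretches. On chromosome 13, 61 of 61 untreated but 30 of 55 Adriamycin peaks counted as elsewhere. On chromosome 17, 29 of 46 and 44 of 44 did. On placed chromosomes 46.6% of untreated and 48.4% of Adriamycin peaks had another peak of the list within 10 kb, and 31.7% and 29.9% had none within 1 Mb. Distances between those limits were found for 21.7% and 21.6%.

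Width followed score differently in these places, in both lists. Outside clusters and contigs the median width stayed near 1 kb from the middle of the score range upward. In untreated cells it was 980 bp at scores of 100 to 200, 992 bp at 200 to 500, 974 bp at 500 to 1000 and 951 bp at 1000 and above. After Adriamycin it was 1047, 909, 963.5 and 999 bp. In clusters the same score ranges had medians of 1294.5, 2247, 3771 and 7664.5 bp in untreated cells and 1441, 2495, 4319 and 7174.5 bp after treatment. The 2 highest ranges there rest on 11 and 12 untreated and 13 and 8 Adriamycin peaks. Many of these lay in the chromosome 8 cluster of wide peaks at 19679281-19942255. Counted over the joint clusters below, it held 12 of 23 untreated and 10 of 22 Adriamycin strong peaks. The strong chromosome Y peaks, with scores of 2978.48 and 3058.02, were 990 and 823 bp wide.

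**Figure D2:**
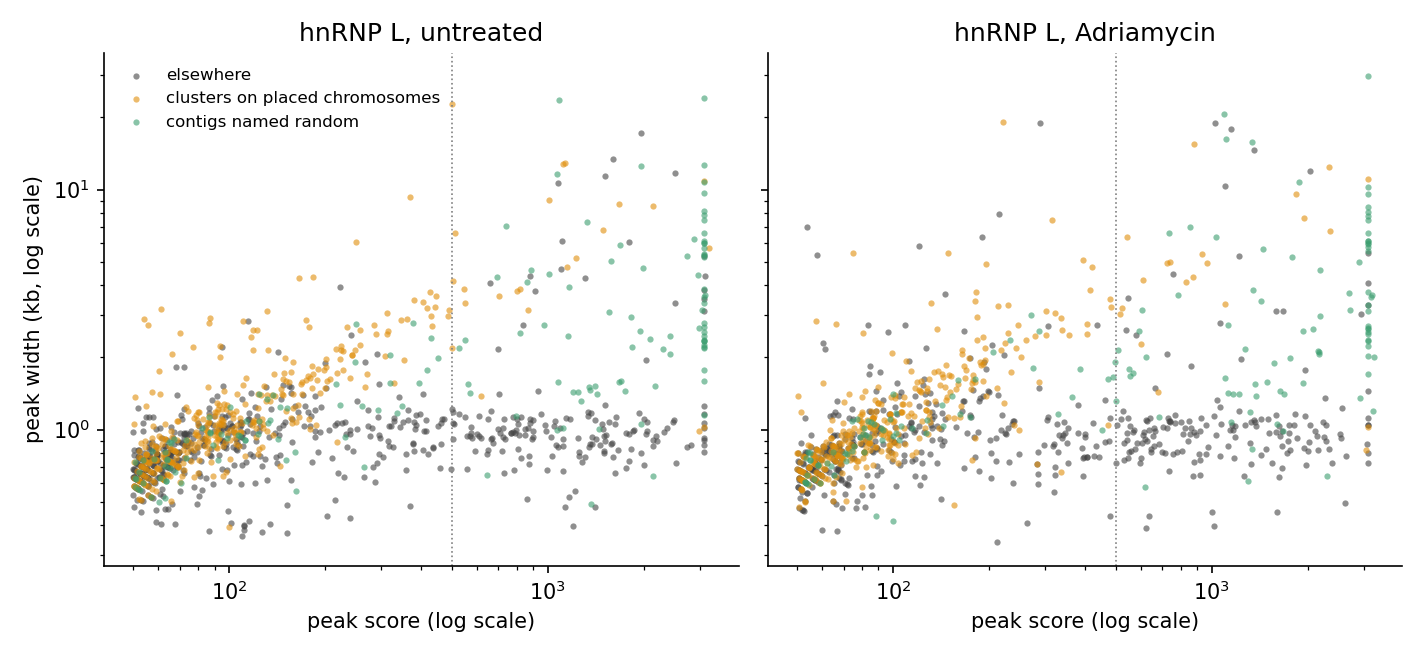
Width of each hnRNP L peak in kb (vertical log axis) against its score (horizontal log axis), untreated on the left and Adriamycin on the right, coloured by place, with a dotted line at a score of 500. Grey points outside clusters and contigs form a level band near 1 kb at high scores, while orange cluster points and green contig points go up in width with score. The column of points at the right is the ceiling of the score.

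The level band was made mainly of isolated peaks. Strong peaks outside clusters and contigs and over 100 kb from any other peak of the list numbered 150 of 166 in untreated cells and 151 of 166 after Adriamycin. All 150 untreated ones had a partner, as did 150 of the 151, and 138 in each list met an isolated strong peak of the other. They lay on 20 chromosomes, from 2 to 14 per chromosome in untreated cells and from 1 to 13 after Adriamycin. Their median width was 957.5 bp (quartiles 848 and 1091.75 bp) and 964 bp (814.5 and 1078 bp), and 83.3% and 81.5% were between 700 and 1300 bp wide. The median distance to the next hnRNP L peak was 2.07 Mb and 2.42 Mb.

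Few isolated strong peaks overlapped a peak of another target. None overlapped H3K4me3 in its own condition (0 of 150 and 0 of 151), against a low share of 2.55% and 2.18% of all peaks outside clusters and contigs. H3K79me2 was found at 4 and 3, Pol II at 10 and 9, and H3K27me3 at 16 and 13. No peak of the 4 targets was found at 128 of 150 untreated peaks (85.3%) and 129 of 151 Adriamycin peaks (85.4%). Most hnRNP L peaks of any kind had none either. The shares were 71.3% and 75.05% of all peaks outside clusters and contigs, and 74.2% and 76.3% of all on placed chromosomes. The nearest H3K4me3 peak was a median of 44.28 kb away in untreated cells and 40.4 kb after treatment, and the nearest Pol II peak 71.91 kb and 117.7 kb. The longer Pol II distance stands beside a Pol II list that is shorter after Adriamycin, 59426 peaks against 81069, and the part of that in the distance was not tested.

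Of the isolated strong peaks, 12 were at the score ceiling in untreated cells, and several kept nearly the same edges after treatment. The peak on chromosome 13 at 111534011-111535267 began at the same base in the Adriamycin list, where it ran to 111535123, and was at the ceiling in both. The chromosome 2 peak at 57481733-57482658 was at 57481736-57482536 after Adriamycin, again at the ceiling. On chromosome 14, the peak at 86598622-86599428 was at 86598632-86599359, also at the ceiling. Each of these 3 was over 10 kb from every peak of the other targets in both conditions. Among the others, those on chromosome 1 at 195053472-195054482 and chromosome 12 at 94814918-94815979 had Adriamycin scores of 2339.79 and 3071.83.

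A smaller number of ceiling peaks were wider. The one on chromosome 1 at 24618143-24623455 was 5313 bp in untreated cells and 5459 bp after Adriamycin, and no other target overlapped it. The peak on chromosome 17 at 13743045-13746543, 3499 bp wide, overlapped H3K27me3 and Pol II in both conditions. The peak on chromosome 13 at 74665478-74668594, 3117 bp wide, overlapped Pol II in both. It overlapped H3K27me3 in untreated cells, whereas the nearest H3K27me3 peak after Adriamycin was 98.71 kb away.

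Above the ceiling, the 3 highest untreated scores were 3205.29, 3119 and 3114.44. The first, on chromosome 8 at 19755081-19760784, overlapped an Adriamycin peak of score 1838.56 that was wider, 9561 bp against 5704 bp. The second, on chromosome 16 at 3348966-3353312, met 2 Adriamycin peaks with scores of 1585.66 and 237.38. The third, on the contig Un_random at 4758194-4761846, met a peak at 4758204-4761855 with a score of 3188.17.

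Clusters were compared by chaining the peaks of both lists together, so that each condition was counted over the same span. This gave 10 clusters on placed chromosomes, with 395 untreated and 382 Adriamycin peaks over 4.171 Mb. The peaks covered 617.4 kb and 612.1 kb. Of the 10, 6 had fewer peaks after Adriamycin and 4 had more. Cluster peaks were mostly weak, and 23 untreated and 22 Adriamycin ones reached a score of 500.

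The largest cluster spanned 2193.97 kb of chromosome 4 at 144993084-147187054. It held 169 untreated and 168 Adriamycin peaks, 88 of each with a partner, 52.1% and 52.4%. The peaks covered 210.7 kb and 217.5 kb, 9.60% and 9.91% of the span. None reached a score of 500 in either list, and the median scores were 80.21 and 79.88. Neighbouring peak starts were a median of 4560.5 bp and 5221 bp apart.

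The chromosome 5 cluster at 14903837-15222019 was denser, with 67 and 64 peaks over 33.1% and 30.5% of its 318.183 kb. Of these, 51 and 49 were partnered. On chromosome 8 at 71942414-72111579, 38 and 32 peaks covered 38.8% and 37.0% of 169.166 kb, and 28 and 27 were partnered. On chromosome 7 at 66929135-67041104, 22 and 17 peaks covered 26.1% and 20.8%. These 3 clusters had median scores between 105.0 and 126.5.

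The second chromosome 8 cluster, at 19679281-19942255, was made of few wide peaks. Its 18 untreated and 16 Adriamycin peaks had median widths of 4976 and 5345 bp and covered 42.5% and 45.4% of the span, and 12 and 10 were strong. The widest placed peak of each list was in it. The untreated one at 19715322-19738086 was 22765 bp wide and met 2 Adriamycin peaks of 3217 and 19054 bp, separated by 0.187 kb. The widest peaks of all were on the contig 8_random, with 24019 bp at 679248-703266 in untreated cells and 29647 bp at 674437-704083 after Adriamycin.

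Some other clusters had little overlap between the lists. The X cluster at 166423553-166631689 was not among them, with 7 of 11 untreated and 9 of 13 Adriamycin peaks partnered. On chromosome 17 at 6378535-6541155, 17 untreated peaks had 5 partners and 9 Adriamycin peaks had 4. On chromosome 13 at 66399636-66845111, 12 untreated and 16 Adriamycin peaks had 3 partners each, and covered 2.82% and 3.71% of the span. The median scores of these clusters, 62.36 and 90.85 on chromosome 17 and 93.32 and 63.83 on chromosome 13, were those of the 5 lower score classes. On chromosome 13 at 65585696-65760618, 3 of 9 untreated and 4 of 10 Adriamycin peaks were partnered. Clusters with more overlap also had low median scores. They were 89.08 and 96.81 on chromosome Y, with 100% and 86.5% partnered, and 80.21 and 79.88 on chromosome 4, with 52.1% and 52.4%. The part of score in the low overlap was not tested.

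**Figure D3:**
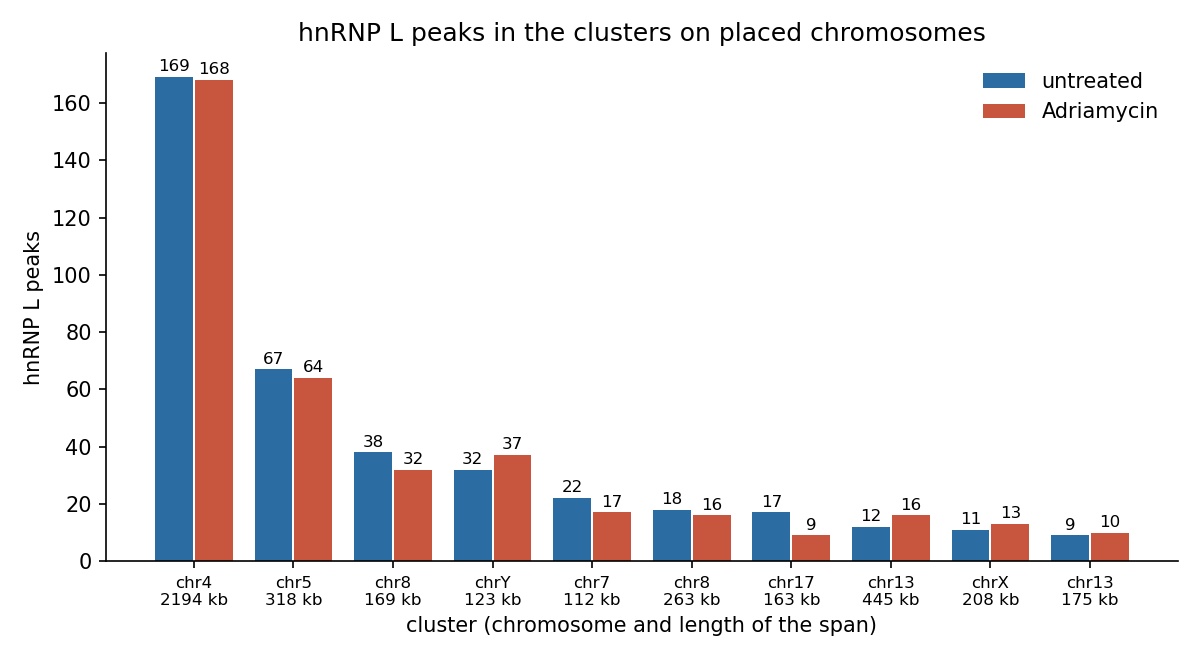
Number of hnRNP L peaks (bars from 0, with the number above each) in the 10 clusters on placed chromosomes, labelled by chromosome and span in kb, untreated in blue and Adriamycin in red. The chromosome 4 span holds 169 and 168 peaks, more than any other shown. The bars have no error because there was 1 library per condition.

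Weak peaks in clusters had a partner more often than weak peaks elsewhere. Among peaks with scores of 50 to 100, 51.9% of untreated cluster peaks had a partner (44.9 to 58.8%) and 19.1% of those elsewhere (14.4 to 24.4%). After Adriamycin the shares were 51.4% (44.5 to 58.3%) and 28.0% (21.8 to 35.02%). At scores of 200 to 500 the places were alike within their intervals, with 95.3% and 97.3% in untreated cells and 94.1% and 95.7% after Adriamycin. Peaks covered up to 45.4% of a placed cluster's span, and the part of that density in the overlap was not tested.

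The cluster on chromosome Y had many steps of similar length. All peaks of that chromosome, 32 in untreated cells and 37 after Adriamycin, lay at 2651704-2774837. The first stood alone with scores of 2978.48 and 3058.02, and a step of 37362 bp in untreated cells led to the rest, which were weak. All 32 untreated peaks had a partner. Of steps of up to 5 kb between neighbouring peak starts, 8 of 28 in untreated cells (28.6%) and 13 of 34 after Adriamycin (38.2%) were between 2200 and 2400 bp. On the other placed chromosomes 15 of 231 (6.49%) and 15 of 205 (7.32%) were. The median of steps of up to 5 kb was close to that on the other placed chromosomes, at 2297 bp and 2294.5 bp on Y against 2354 bp and 2300 bp, so Y stood out by the share in that range and not by the median. This range was chosen after the steps were seen.

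The 5 Adriamycin peaks of chromosome Y without a partner had scores between 50.84 and 98.48, and several divided a long untreated step. The one at 2703741-2704558 (score 68.68) lay in an untreated step of 4616 bp, which became steps of 2361 and 2298 bp. The one at 2729502-2730199 (score 82.35) lay in an untreated step of 4593 bp, which became 2394 and 2110 bp. The one at 2724750-2725852 (score 98.48) lay in an untreated step of 9021 bp, which became 6916 and 2358 bp. The one at 2762977-2763823 (score 87.81) lay in an untreated step of 6221 bp, which became 2078 and 3781 bp. The one at 2772600-2773077 (score 50.84) lay in an untreated step of 3569 bp, which became 2665 and 1122 bp. Steps on either side of the 5 peaks thus ran from 1122 to 6916 bp and were not all of similar length. None of the Y peaks overlapped a peak of another target. The lists of those targets hold between 2 and 25 peaks on the chromosome.

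**Figure D4:**
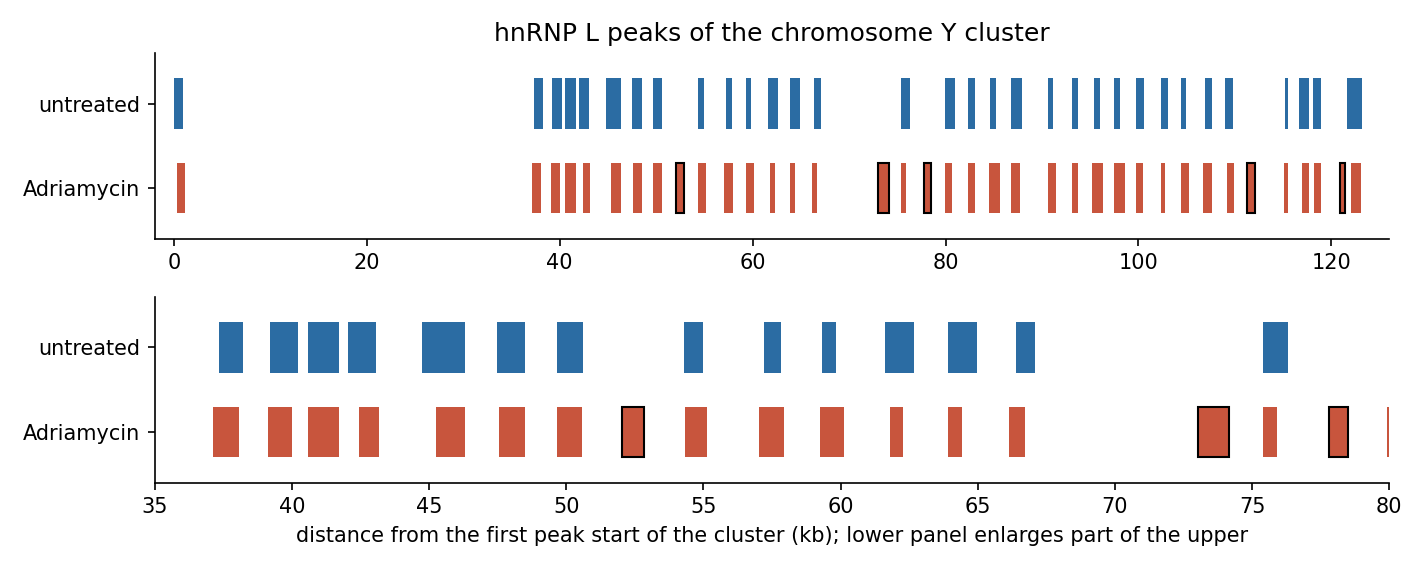
Positions of hnRNP L peaks in the chromosome Y cluster as boxes drawn to scale, by distance in kb from the first peak start, untreated above and Adriamycin below in each panel, with the lower panel an enlargement. Boxes outlined in black are the 5 Adriamycin peaks without an untreated partner. Of steps of up to 5 kb between neighbouring starts, 28.6% and 38.2% were between 2200 and 2400 bp, a range chosen after the steps were seen.

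Contigs named random held a large share of the strong peaks. They held 14.1% of untreated and 15.0% of Adriamycin peaks but 85 of the 274 and 85 of the 272 strong ones, and 31 of the 47 and 31 of the 42 at the ceiling. The median score there was 715.8 and 621.9. Elsewhere on placed chromosomes 166 strong peaks were listed in each condition. The contig Un_random had 105 and 104 peaks over 264.8 kb and 262.0 kb, with 98 and 96 partnered. The contig 1_random differed from it, with 3 of 16 and 4 of 12 peaks partnered. The lists of the other targets hold no peak on such contigs, and the sources used here do not say whether they were called there.

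The fourth question was which marks lay at hnRNP L peaks. On placed chromosomes, 714 of 962 untreated peaks (74.2%) and 663 of 869 Adriamycin peaks (76.3%) overlapped none of the 4 other targets in their own condition. H3K27me3 alone was the most frequent single combination, at 81 and 59 peaks. Next in untreated cells came Pol II alone and H3K27me3 with Pol II, at 38 peaks each, against 24 and 35 after Adriamycin. H3K79me2 alone was at 27 and 42. H3K4me3 with H3K79me2 and Pol II was at 10 and 6.

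Outside clusters and contigs the targets found most often were H3K27me3 and Pol II. There H3K27me3 overlapped 18.7% of untreated peaks (15.6 to 22.1%) and 16.4% of Adriamycin peaks (13.3 to 20.0%), Pol II 13.9% and 13.3%, H3K79me2 5.27% and 3.96%, and H3K4me3 2.55% and 2.18%. In that order the untreated lists held 97639, 81069, 63053 and 38421 peaks over 101.0, 77.36, 138.9 and 62.9 Mb. The Adriamycin lists held 88365, 59426, 71959 and 41705 peaks over 75.33, 54.72, 130.1 and 57.6 Mb. The part of list size in the ranking was not tested. In clusters the values were closer together, with 6.42% and 6.32% for H3K27me3, 9.89% and 12.1% for H3K79me2, 7.22% and 6.59% for H3K4me3, and 9.09% and 4.12% for Pol II. The Pol II intervals in clusters, 6.38 to 12.5% and 2.32 to 6.71%, overlapped slightly, which does not show that counting error covers the difference.

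The chromosome 4 cluster held the larger part of these Pol II overlaps. In it 23 untreated and 9 Adriamycin hnRNP L peaks overlapped Pol II, while H3K79me2 was at 33 and 38 and H3K4me3 at 18 and 16. The Pol II list held 73 peaks in this span in untreated cells and 44 after Adriamycin, while the whole list went from 81069 to 59426. For H3K79me2 the span held 140 and 178 peaks, and the whole list 63053 and 71959. Both targets thus differed in the span in the direction of their whole lists, and whether they did so by more was not tested.

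**Figure D5:**
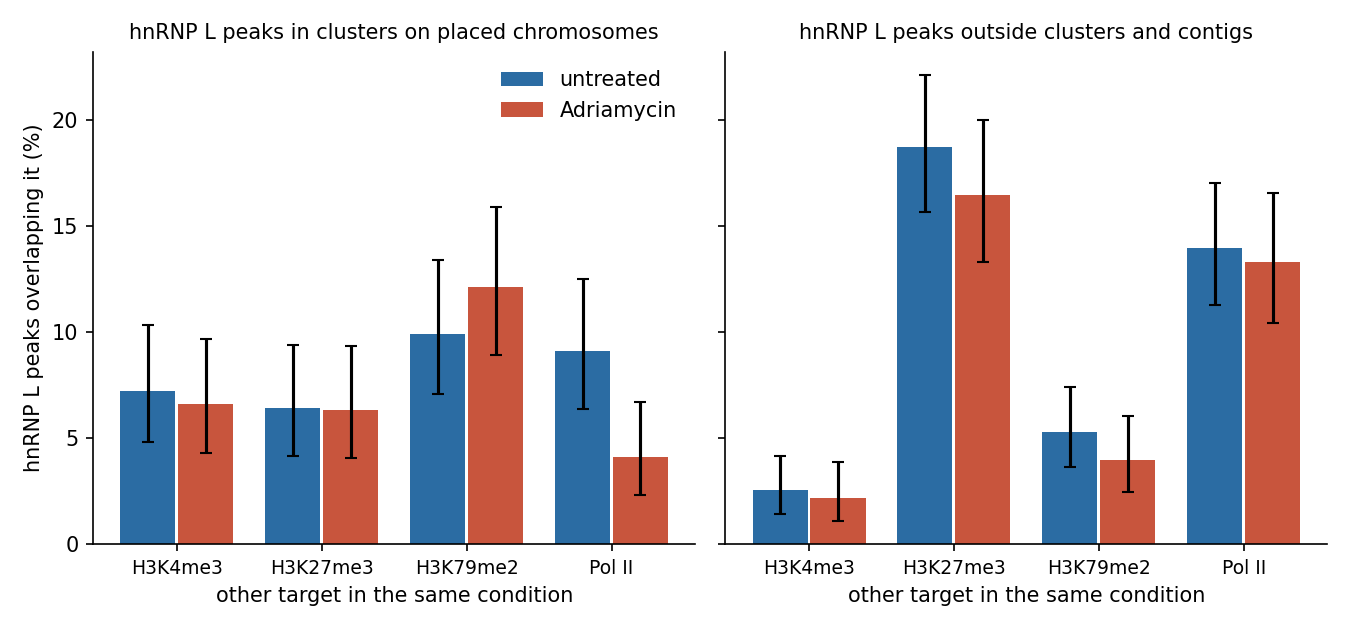
Percentage of hnRNP L peaks overlapped by each other target in the same condition (bars from 0, exact 95% binomial intervals), in clusters on placed chromosomes on the left and outside clusters and contigs on the right. On the right H3K27me3 is at 18.7% and 16.4% and H3K4me3 at 2.55% and 2.18%. The intervals of the conditions overlap for each target in both panels, which does not show that counting error covers a difference. Clusters were set within each list.

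Outside clusters, Pol II and H3K27me3 overlapped a smaller share of the strongest hnRNP L peaks than of the weak ones, in both lists. Pol II was at 16.7% of untreated peaks with scores of 50 to 100 (12.4 to 21.9%), at 21.1% of those at 100 to 200 (13.2 to 31.0%) and at 7.22% of those at 1000 and above (2.95 to 14.3%). After Adriamycin it was at 17.5% (12.3 to 23.6%), 22.2% (13.7 to 32.8%) and 5.56% (1.83 to 12.5%). H3K27me3 was at 21.8% (16.9 to 27.3%), 23.3% (15.1 to 33.4%) and 11.3% (5.80 to 19.4%) in untreated cells. After Adriamycin it was at 18.5% (13.2 to 24.8%), 32.1% (22.1 to 43.4%) and 5.56% (1.83 to 12.5%). The intervals of the highest class lay apart from those of both weak classes for H3K27me3 after Adriamycin and overlapped at least 1 of them otherwise.

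The lists also show what happened to the other targets where hnRNP L was found in both conditions. Of the 716 partnered untreated peaks, 69 overlapped Pol II in untreated cells and 47 after Adriamycin, with 41 in both, 28 in untreated cells only and 6 after Adriamycin only. For H3K27me3 the numbers were 76 and 64, with 52 in both. H3K4me3 was at 27 and 24, with 22 in both, and H3K79me2 at 35 and 36, with 31 in both. A drop in Pol II was not particular to partnered peaks. At the 404 unpartnered untreated peaks Pol II was at 47 and 33, with 25 in both, 22 in untreated cells only and 8 after Adriamycin only. Of all untreated Pol II peaks, 48.0% had no Adriamycin partner. That share counts Pol II peaks while the counts here are of hnRNP L peaks, so the values are not directly comparable.

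The strongest untreated hnRNP L peaks outside clusters with Pol II or H3K27me3 in both conditions included, besides those on chromosomes 13 and 17 above, a group on chromosome 6. Its peaks at 47704922-47716610 (11689 bp, score 2513.49) and 47691265-47704625 (13361 bp, score 1598.99) overlapped H3K27me3 in both conditions and no Pol II. After Adriamycin the first met a peak at 47701636-47720627, 18992 bp wide with a score of 1023.78. The second met that peak and another at 47686907-47701575, so the edges between these wide peaks were not the same in the lists. The peak on chromosome 6 at 29697346-29699288 (score 2035.3, and 1231.48 after Adriamycin) overlapped Pol II in both conditions. It overlapped H3K27me3 and H3K79me2 in untreated cells only, with the nearest peaks 8.969 kb and 1.157 kb away after treatment. The nearest other hnRNP L peak was 15040 kb away.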

How the data were processed

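Each library is a deposited peak list with a chromosome, start, end, name and score per peak. Per the submitters' processing notes, the tools were CASAVA 1.8.2 and MACS 1.4.1, on build mm9. The sources used here do not give the depth, the handling of duplicate reads or the use of a control library. They also do not say whether reads that map to several places were kept, which bears on peaks in clusters, on chromosome Y and on contigs named random. Isolated strong peaks were not checked for repeated sequence either. The score is the authors' deposited value and was used to describe, rank and filter peaks within a list. Peaks within a list did not overlap. Coordinates are printed 1-based.

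Overlap, widths, gaps and covered length were computed with Python 3.11.15, numpy 2.4.6, pandas 2.3.3 and SciPy 1.17.1 (figures: matplotlib 3.10.9). Intervals on shares are 95% Clopper-Pearson (exact). They cover only counting error, treat neighbouring peaks as independent and say nothing of the spread between cultures. The code for overlap, matched width, clusters, gaps and covered length was checked on simulated lists with planted values. The spacing on chromosome Y was not tested by simulation.

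The members, the cluster definition and the comparisons were chosen with earlier results of these data known. Isolated strong peaks, the joint clusters and the chromosome Y steps were chosen after their values were seen. Named regions are the highest-scoring partnered peaks (ties at 3100 in list order), the highest over 5 kb from the other list, the widest peaks, the largest clusters, the chromosomes with most peaks, and the highest with Pol II or H3K27me3 in both conditions. The 12 isolated ceiling peaks were added later, and the text prints part of each set. The planned gene lists were not run, since no annotation on mm9 was used here.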

Additional observations from a re-analysis of the deposited data

How the results depend on the processing

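Each alternative changed 1 choice. Of 91 alternative values, 49 equalled the reported value or stayed inside its interval. The ratio of covered length was 0.965 on numbered chromosomes and X, 0.995 at a score of at least 100 and 0.973 with peaks within 1 kb merged, and it turned to 1.02 with lists made equally long by score. The median width difference was negative under the 5 alternatives, at -17 bp on numbered chromosomes and X and when 50% of the shorter peak had to be overlapped, -19 bp at a score of at least 100, -24 bp with equal numbers and -25.5 bp after merging. Partnered peaks were 63.9% of the untreated and 69.6% of the Adriamycin list. They were 59.5% and 66.1% on numbered chromosomes and X, 78.2% and 82.2% at a score of at least 100, and 69.1% and 74.95% when a peak within 1 kb counted. With equal numbers they were 67.6% and 67.3%, so the difference between the lists is close to gone there, and with the 50% overlap the untreated share was 61.0%.

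Peaks in clusters, contigs included, were 41.2% and 44.0% of the lists. They were 36.8% and 39.3% on numbered chromosomes and X, 33.4% and 33.0% at a score of at least 100, 28.8% and 31.4% after merging, 34.8% and 35.3% with gaps of up to 50 kb, 48.5% and 51.3% with gaps of up to 200 kb, and 50.9% and 52.8% with at least 5 peaks. Over the whole lists, contigs included, H3K27me3 was at 11.96% and 10.37% of peaks and Pol II at 10.36% and 8.023%. H3K79me2 was at 6.071% and 6.262%, and H3K4me3 at 3.75% and 3.425%. Of 48 alternatives for these shares, 35 stayed inside the interval. On numbered chromosomes and X, H3K27me3 was at 14.4% and 12.7% and untreated Pol II at 12.5%. The H3K27me3 counts stayed at 134 and 106 there, over 930 and 832 peaks in place of 1120 and 1022. After merging, untreated Pol II was at 12.4%. With the 50% overlap, untreated H3K4me3 was at 2.59%, and at a score of at least 100 Adriamycin H3K79me2 was at 4.15%. Within 1 kb the values were H3K4me3 7.41% and 6.85%, H3K27me3 15.0% and 13.3%, Pol II 13.4% and 10.4%, and 8.42% for Adriamycin H3K79me2. Isolated strong peaks with none of the other targets were 84.6 to 88.8% under other thresholds, chosen after the values were seen. With steps of 2100 to 2500 bp, chosen likewise, the share on chromosome Y was 46.4% and 52.9%. No paired analysis was possible because there was 1 library per condition. Read depth is unknown, so a missing weak peak is not shown to be absent.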
